A study of Rattus norvegicus with 12 samples.

Results

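The GABA-A receptor subunit genes examined here were *Gabra2*, *Gabra3*, *Gabra4*, *Gabra5*, *Gabrb1*, *Gabrg1* and *Gabrd*, chosen by name from the table of raw counts, 7 of 37209 genes listed. RNA-Seq was performed on poly-A enriched RNA from punches of the central nucleus of the amygdala (CeA) of wild type male Sprague Dawley rats aged 14 to 16 weeks, with 1 library per rat. The CIE group (6 rats, numbered 1 to 6) inhaled chronic intermittent ethanol vapor and was killed directly after its final session, while still intoxicated. The Control group (6 rats, numbered 7 to 12) was handled alike, breathed only air and was killed at the matching time. The question was whether ethanol vapor altered the transcripts of these receptor subunits. The library names of both groups end in CIE, so the groups were taken from the treatment given for each rat. The numbers do not pair rats, and anything that follows their order cannot be told apart from the treatment. Rats shared cages, and the hemisphere used was chosen at random. Neither cage nor side is given per rat, so the tests treat the rats as independent.

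GABA-A receptors are chloride channels opened by GABA, the main inhibitory transmitter of the brain, and each is a ring of 5 subunits. Most receptors at synapses join alpha, beta and gamma subunits and carry brief inhibitory currents. Receptors with a delta subunit lie outside synapses, respond to ambient GABA and neurosteroids, and carry a tonic current. Most neurons of the CeA release GABA, and ethanol is known to change GABA transmission in this nucleus.

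Total counts per rat ranged from 39082548 to 95647601, and the 7 subunit genes had between 669 and 14590 counts in a rat, so counting error was small beside the differences between rats. Levels are given as CPM (counts scaled to a common library total) after TMM normalization, and the groups were compared with edgeR's quasi-likelihood F test over the 20944 genes with enough counts. FDR values are Benjamini-Hochberg adjusted over all of these genes. CPM values are not divided by transcript length, so they order rats for 1 gene and not genes among themselves. Of 12 CeA neuron markers, 11 were found in the table and all 11 were detected, with sums of 614 to 1897 CPM in CIE rats and 720.1 to 2341 CPM in Control rats and 2 markers lower in the CIE group at a nominal p value below 0.05. Markers of other tissue types were not the same in all rats. Summed over 12 striatal projection neuron markers, the CIE rats ranged from 765 to 4891 CPM (median 983) and the Control rats from 482 to 5220 CPM (median 819.8), and none of the 12 differed at a nominal p value below 0.05. For 12 cortical glutamatergic neuron markers the sums were 726 to 1418 CPM in CIE rats against 594 to 1258 CPM in Control rats, with 2 markers higher in the CIE group at a nominal p value below 0.05. For 12 myelinating oligodendrocyte markers they were 5791 to 14044 CPM against 8896 to 16663 CPM, with 11 markers lower. None of the markers found was at 0 in every rat.

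None of the 7 subunit genes differed between the CIE and Control groups in edgeR's test, either at 5% FDR or at a nominal p value below 0.05. As background, 0.363% of the genes tested passed 5% FDR and 8.31% passed the nominal threshold. The smallest p value among the 7 was that of *Gabra5* (0.140). The median log2 fold change of the 7 was 0.12, against 0.00096 over all genes tested, and 6 of the 7 values were above 0. The groups overlapped in all 7 genes, whereas 0.893% of all genes tested showed no overlap. DESeq2 and limma-voom likewise placed none of the 7 at 5% FDR or at a nominal p value below 0.05, although limma-voom gave larger log2 fold changes for *Gabra4* (0.45) and *Gabrd* (0.64) than edgeR. In bulk tissue, a change in the number of cells and a change in RNA per cell cannot be told apart.

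**Figure D1:**
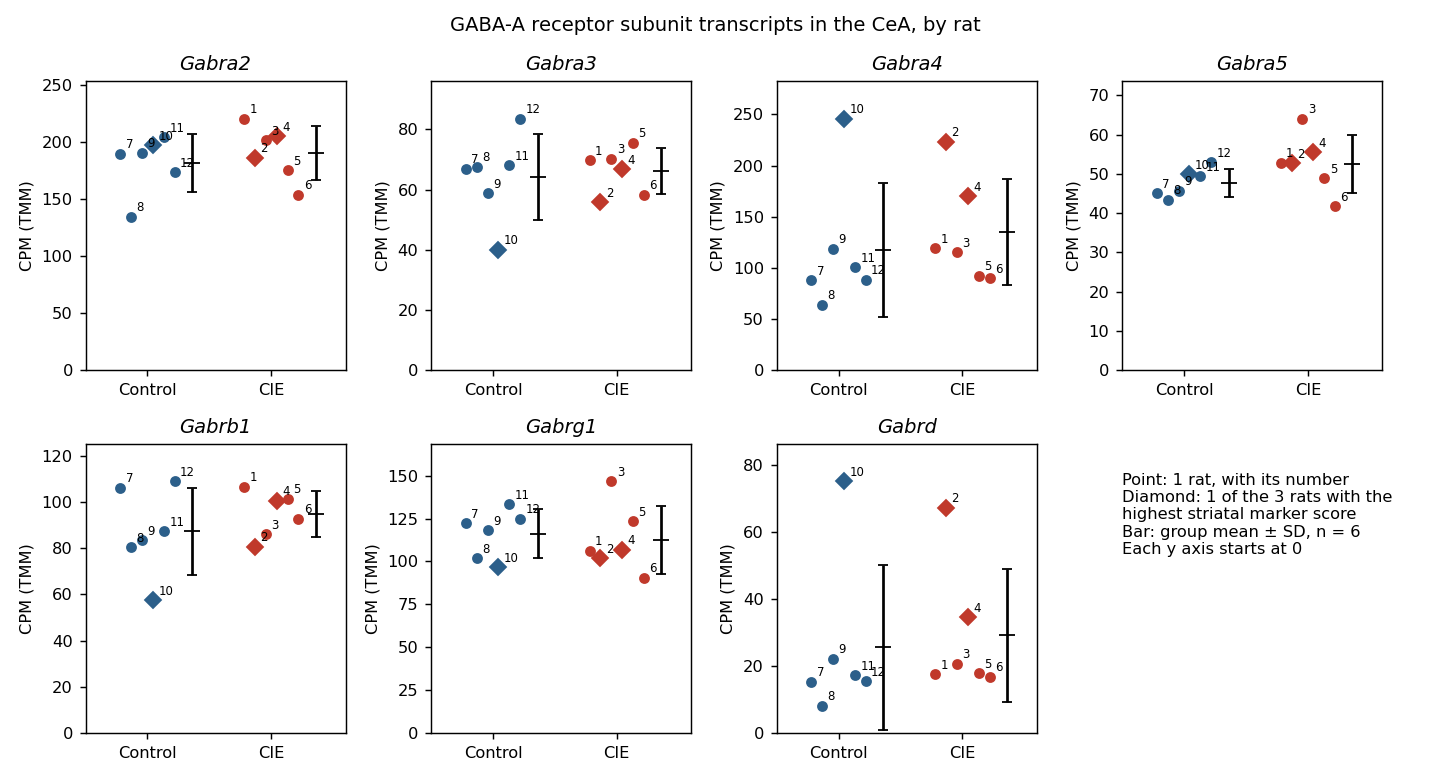
Level of each subunit transcript in CPM (vertical axis, from 0) in the Control and CIE groups, with 1 point per rat, the rat's number beside it, and the group mean ± SD (n = 6) as a black bar. Diamonds are the 3 rats with the highest striatal marker score (CIE rats 2 and 4, Control rat 10), which lie at the top of both groups in *Gabra4* and *Gabrd*.

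*Gabra2* encodes the alpha2 subunit, a synaptic subunit typical of limbic regions and linked to the anxiolytic action of benzodiazepines. It ranged from 154 to 221 CPM in CIE rats (median 194) and from 135 to 204 CPM in Control rats (median 190.3). The means were 191 ± 23.8 CPM and 182 ± 25.2 CPM (SD, n = 6 each), and 2 CIE rats were above every Control rat. The log2 fold change was 0.07 (SE 0.11, edgeR FDR 0.913), with a 95% interval from -0.16 to 0.30, or 0.896 to 1.23 as a ratio. It was 0.0033 without Control rat 8 and 0.125 without CIE rat 6, and 0.02 without CIE rat 1.

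*Gabra3* encodes the alpha3 subunit, found in many monoaminergic and basal forebrain neurons. It ranged from 55.9 to 75.6 CPM in CIE rats (median 68.2) and from 40.0 to 83.5 CPM in Control rats (median 67.2). Both the lowest and the highest rat were Control rats, rat 10 and rat 12. In log2, CIE over Control was 0.04 (SE 0.14, edgeR FDR 0.961), with an interval from -0.25 to 0.34.

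*Gabra5* encodes the alpha5 subunit, which serves tonic inhibition in the hippocampus and is anchored there by radixin. It ranged from 41.8 to 64.0 CPM in CIE rats (median 52.8) and from 43.4 to 53.0 CPM in Control rats (median 47.5). Of the 6 CIE rats, 5 were above the Control median, 2 were above every Control rat and 1, rat 6, was below every Control rat. The means were 52.6 ± 7.36 CPM and 47.7 ± 3.59 CPM (SD, n = 6 each). The log2 fold change was 0.14 (SE 0.09, edgeR FDR 0.739), with an interval from -0.05 to 0.33, or 0.965 to 1.26 as a ratio. The difference of the group means of log2 CPM had a two-sided exact permutation p of 0.197. Without CIE rat 6 the log2 fold change was 0.20 (nominal edgeR p 0.0233, FDR 0.427), and without CIE rat 3 it was 0.08 (FDR 0.715).

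*Gabrb1* encodes the beta1 subunit; beta subunits form the GABA binding site together with an alpha subunit. It ranged from 80.7 to 107 CPM in CIE rats (median 96.6) and from 57.6 to 109 CPM in Control rats (median 85.4). The lowest value was that of Control rat 10, and 5 of the 6 CIE rats were above the Control median. In log2, CIE over Control was 0.12 (SE 0.13, edgeR FDR 0.867), with an interval from -0.16 to 0.40. It was 0.03 without Control rat 10 and 0.19 without Control rat 12.

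*Gabrg1* encodes the gamma1 subunit, which in the adult brain is expressed in few regions, the amygdala among them, and gives receptors with low benzodiazepine sensitivity. It ranged from 90.6 to 147 CPM in CIE rats (median 107) and from 96.5 to 133 CPM in Control rats (median 120.2). CIE rat 3 was the highest and CIE rat 6 the lowest of all 12 rats. The log2 fold change was -0.05 (SE 0.11, edgeR FDR 0.947), with an interval from -0.29 to 0.20, and it was the only 1 of the 7 below 0.

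*Gabra4* encodes the alpha4 subunit, which pairs with delta outside synapses and is insensitive to classical benzodiazepines. It ranged from 89.9 to 223 CPM in CIE rats (median 117) and from 64.1 to 246 CPM in Control rats (median 94.6). The highest values were those of Control rat 10 (246 CPM), CIE rat 2 (223 CPM) and CIE rat 4 (170.2 CPM), and the other 9 rats lay between 64.1 and 119 CPM. The means were 135 ± 52.0 CPM and 118 ± 65.3 CPM (SD, n = 6 each). In log2, CIE over Control was 0.20 (SE 0.31, edgeR FDR 0.912), with an interval from -0.46 to 0.86, or 0.728 to 1.81 as a ratio.

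*Gabrd* encodes the delta subunit. It ranged from 16.8 to 67.3 CPM in CIE rats (median 19.2) and from 8.17 to 75.1 CPM in Control rats (median 16.4). The same 3 rats stood above the rest, Control rat 10 at 75.1 CPM, CIE rat 2 at 67.3 CPM and CIE rat 4 at 34.6 CPM, while the other 9 rats lay between 8.17 and 22.1 CPM. All 6 CIE rats were above the Control median, but none was above every Control rat. The means were 29.1 ± 19.8 CPM and 25.6 ± 24.7 CPM (SD, n = 6 each). The log2 fold change was 0.19 (SE 0.50, edgeR FDR 0.949), with an interval from -0.89 to 1.26, or 0.541 to 2.40 as a ratio across the 12 rats.

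The subunits varied between rats to unequal extents. The SD of log2 CPM within groups was 0.94 for *Gabrd* and 0.59 for *Gabra4*, above 99.0% and 95.7% of the 16891 genes with a mean of at least 1 CPM, whose median was 0.19. It was 0.28 for *Gabra3*, 0.26 for *Gabrb1*, 0.21 for *Gabrg1*, 0.20 for *Gabra2* and 0.16 for *Gabra5*. The highest rat exceeded the lowest by 9.18 times in *Gabrd* and 3.83 times in *Gabra4*, and by 1.53 to 2.09 times in the other 5 genes.

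The 3 rats that stood apart in *Gabrd* and *Gabra4* also had the highest striatal marker scores. The score, the mean log2 CPM of the 12 striatal projection neuron markers, was 8.24 in Control rat 10, 8.16 in CIE rat 2 and 7.10 in CIE rat 4, and lay between 4.72 and 6.14 in the other 9 rats. Striatal projection neurons are known to express alpha4 and delta. The same 3 rats also had the highest summed CPM of the CeA neuron markers, at 2341, 1897 and 1689 CPM against at most 1403 CPM in the other 9 rats. By the mean log2 CPM of these markers the order differed, with Control rat 10 at 5.96, Control rat 9 at 5.86, CIE rat 4 at 5.82 and CIE rat 2 at 5.79. The CeA list includes *Drd1*, which is also a gene of the direct striatal pathway. It also holds *Penk* and *Tac1*, and it was not limited to genes absent from striatal neurons. A sum of CPM is weighted toward the most abundant markers. The part of striatal or CeA neurons in the levels of the subunits was not tested. Since the 3 rats lay above all others in the score, the relation to it was tested only within the other 9 rats, for all 7 genes. Both groups were pooled in this test, and group means were not subtracted. This choice of rats was made after the values were seen. The adjustment over 7 relations covers neither that choice nor the choice of the score. *Gabra4* rose with the score (Pearson's r = 0.87, exact permutation p = 0.000604, 0.00264 adjusted over 7 relations; Spearman's rho = 0.87, exact permutation p = 0.00451, adjusted 0.0316). *Gabrd* did so by Pearson's r (0.83, exact permutation p = 0.000755, adjusted 0.00264), and its Spearman's rho of 0.75 had an exact permutation p of 0.0255, adjusted 0.0892. Without Control rats 8 and 12, the 2 of these 9 farthest from the median score, r was 0.83 for *Gabra4* and 0.78 for *Gabrd*.

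The other 5 genes did not pass in the same test. *Gabra2* had r = 0.67 (exact permutation p = 0.0481, adjusted 0.112; rho = 0.68, exact permutation p = 0.0503, adjusted 0.117), which was 0.28 without the same 2 rats. *Gabra3* had r = -0.57 (exact permutation p = 0.107, adjusted 0.187; rho = -0.35, exact permutation p = 0.359, adjusted 0.628). For *Gabra5*, *Gabrb1* and *Gabrg1* r lay between -0.11 and 0.17 and rho between -0.12 and 0.18, with exact permutation p values between 0.644 and 0.948 and adjusted p values between 0.767 and 0.948. Without the same 2 rats r was 0.14, -0.52 and -0.12. *Gabra3* and *Gabrb1* were at their lowest in Control rat 10, at 40.0 and 57.6 CPM.

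**Figure D2:**
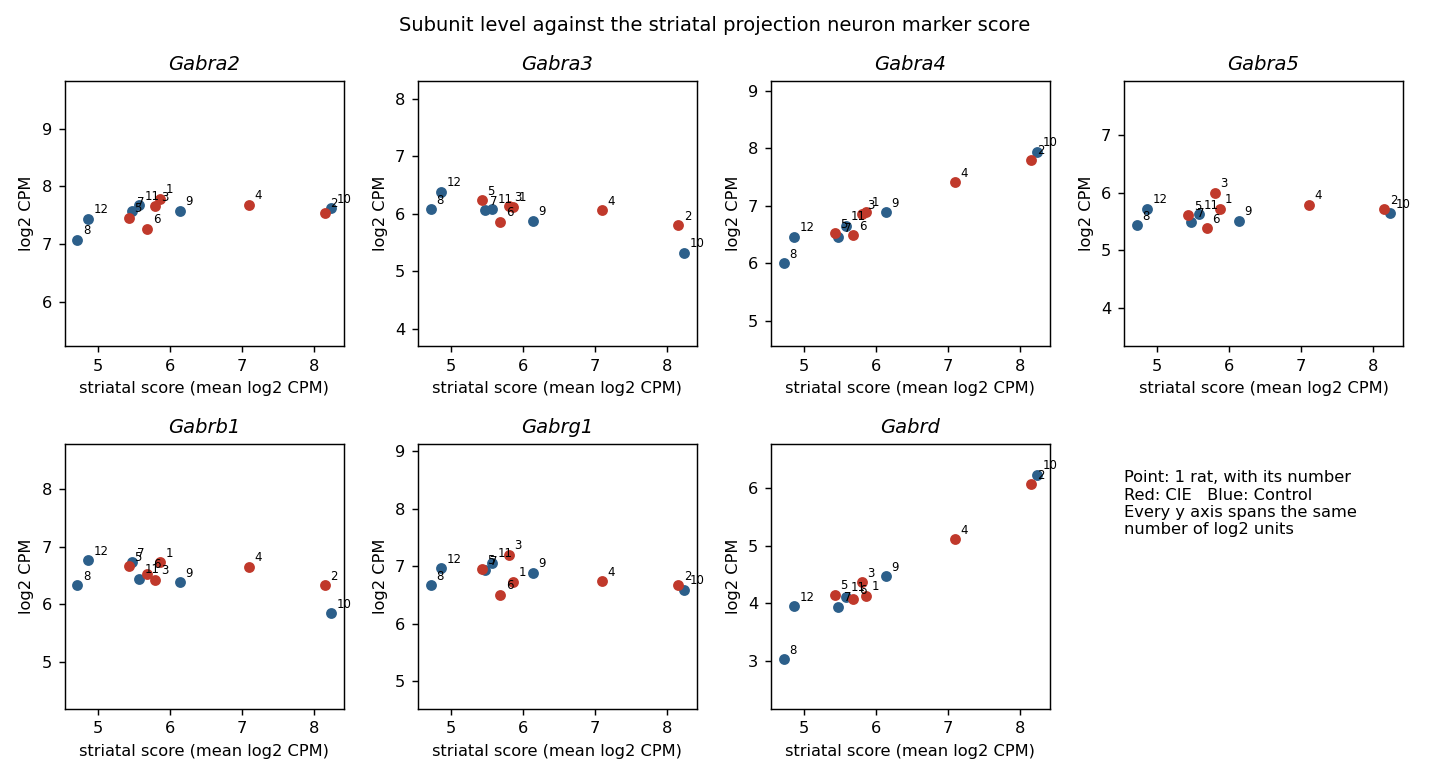
Level of each subunit transcript (log2 CPM, vertical axis, the same span in every panel) against the striatal marker score (mean log2 CPM of 12 markers, horizontal axis), with 1 point per rat, CIE in red and Control in blue. *Gabra4* and *Gabrd* climb along the score in both groups, and *Gabra3* and *Gabrb1* are lowest in Control rat 10.

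Taking the markers into the comparison narrowed the intervals of these genes without giving a difference. When edgeR was given the cortical and striatal scores as covariates, the SE of *Gabrd* fell from 0.50 to 0.12 and its log2 fold change was -0.03 (FDR 0.976), with an interval from -0.29 to 0.24. *Gabra4* had a log2 fold change of -0.0074 (SE 0.08, edgeR FDR 0.992), with an interval from -0.18 to 0.17. Without the 3 rats with the highest striatal score, a choice made after the values were seen, the values were 0.23 for *Gabrd* (SE 0.21, edgeR FDR 0.922) and 0.19 for *Gabra4* (SE 0.15, edgeR FDR 0.905). Single rats also moved these values. Without Control rat 10, *Gabrd* was at 0.90 (nominal edgeR p 0.0281, FDR 0.380) and *Gabra4* at 0.56 (nominal p 0.0270, FDR 0.375), whereas without CIE rat 2 they were at -0.25 and -0.0026. The marker scores come from the same libraries as the subunit counts. The cortical markers themselves had a median log2 fold change of 0.55, CIE over Control. A covariate that differs between the groups can take up part of a group difference, and whether it did so was not tested.

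**Figure D3:**
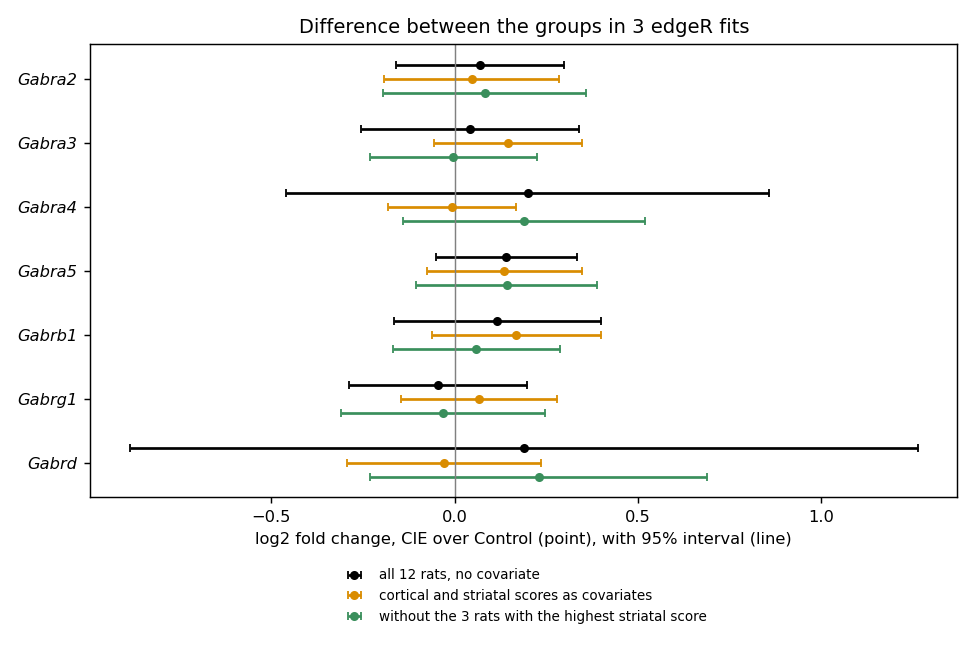
Log2 fold change of each subunit gene, CIE over Control (horizontal axis), with its 95% interval, in the edgeR fit of all 12 rats (black), with cortical and striatal scores as covariates (orange) and without the 3 rats with the highest striatal score (green). Every interval includes 0, and those of *Gabrd* and *Gabra4* shorten in the fits drawn in color.

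The stretches of DNA before the starts of the subunit genes are shown for the 2 genes that varied together and for 2 that did not follow them. They are the 250 bases before the start of transcription from RefSeq (build GRCr8, not the build used for mapping), written 5′ to 3′ on the strand of the gene. Capitals mark GC boxes (GGGCGG on either strand) and CCAAT boxes (CCAAT on either strand), short elements common in promoters. Of the 7 genes, 6 had an entry, *Gabra2* being the exception.
*Gabrd*, chr5:171252710-171252959, minus strand: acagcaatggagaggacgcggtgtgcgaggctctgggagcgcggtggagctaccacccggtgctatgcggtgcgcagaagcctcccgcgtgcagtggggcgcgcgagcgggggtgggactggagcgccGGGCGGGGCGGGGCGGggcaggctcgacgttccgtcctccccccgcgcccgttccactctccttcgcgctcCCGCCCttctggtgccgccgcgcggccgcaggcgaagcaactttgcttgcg
*Gabra4*, chr14:36944497-36944746, plus strand: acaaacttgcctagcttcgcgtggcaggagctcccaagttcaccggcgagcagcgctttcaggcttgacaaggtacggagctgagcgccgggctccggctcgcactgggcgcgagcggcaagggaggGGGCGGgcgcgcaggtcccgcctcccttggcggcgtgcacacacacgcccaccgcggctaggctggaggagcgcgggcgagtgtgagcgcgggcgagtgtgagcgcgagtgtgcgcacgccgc
*Gabrb1*, chr14:36902894-36903143, minus strand: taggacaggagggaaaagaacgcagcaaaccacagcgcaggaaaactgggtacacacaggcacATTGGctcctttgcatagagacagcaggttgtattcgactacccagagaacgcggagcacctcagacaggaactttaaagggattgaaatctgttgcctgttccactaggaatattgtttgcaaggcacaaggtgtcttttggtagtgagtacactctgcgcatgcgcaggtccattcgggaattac
*Gabrg1*, chr14:37750042-37750291, plus strand: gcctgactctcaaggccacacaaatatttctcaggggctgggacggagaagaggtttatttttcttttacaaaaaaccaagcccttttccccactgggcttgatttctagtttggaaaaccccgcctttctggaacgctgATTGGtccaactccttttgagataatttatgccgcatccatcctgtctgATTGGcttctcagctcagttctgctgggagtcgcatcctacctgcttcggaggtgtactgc

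The G and C content of these stretches was 74.0% in *Gabrd* and 71.6% in *Gabra4*, higher than in 95.8% and 93.6% of the 33469 promoters in the table, and 49.2% in *Gabrb1* and 48.4% in *Gabrg1*, near the median of 51.2%. *Gabrd* held 4 GC boxes and *Gabra4* 1, whereas *Gabrb1* and *Gabrg1* held 0 and had 1 and 2 CCAAT boxes. *Gabra5*, which did not follow the striatal score, also had a GC-rich stretch (76.4%) with 1 GC box, and *Gabra3* was at 40.4% with 1 CCAAT box. Of all promoters, 30.5% held a GC box and 34.0% a CCAAT box. The early growth response motif GCGNGGGCG was found 2 times in *Gabra4*, overlapping no GC box, in none of the other 5 genes and in 4.29% of all promoters. All motifs were sought on either strand and at any place in the window. The TATA box letters TATAAA were found in *Gabra3*, only on the strand opposite to the gene, and in 12.9% of all promoters. The cAMP response element TGACGTCA was found in none of the 6 genes and in 1.59% of all promoters. These matches are letters in a window and were not linked to the counts.

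*Gabra4* lies next to *Gabrb1* on chromosome 14 in the RefSeq annotation, with no other protein-coding gene between them, and *Gabra2* and *Gabrg1* are neighbors on the same chromosome, with 1 protein-coding gene between *Gabra4* and *Gabra2*. Within the 9 rats with the lower striatal scores, both groups pooled, *Gabra4* and *Gabrb1* had r = 0.11 (exact permutation p = 0.801, the same when adjusted over 2 pairs) and a Spearman's rho near 0 (exact permutation p = 1.0). Without the 2 rats farthest from the median of *Gabra4*, their r turned to -0.87. *Gabra4* and *Gabrd*, which lies on chromosome 5, had r = 0.91 (exact permutation p = 0.000931, adjusted 0.00186; rho = 0.87, exact permutation p = 0.00451, adjusted 0.00902), and r = 0.95 without those 2 rats. Over all rats, with group means subtracted, *Gabra4* and *Gabrd* had r = 0.98, the highest of all pairs of the subunits examined. On the same values *Gabrb1* had r = -0.65 with *Gabra4* (rho = -0.40) and r = -0.66 with *Gabrd* (rho = -0.43). The adjustment over 2 pairs covers neither the other pairs of subunits nor the choice of the 9 rats, which was made after the values were seen.

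Ratios of subunits within a rat do not depend on library scaling, and 3 were compared between the groups. The ratio of *Gabrd* to *Gabrg1* counts, which occupy the same place in the receptor, ranged from 0.141 to 0.661 in CIE rats and from 0.0804 to 0.778 in Control rats. On the log2 scale the CIE mean was higher by 0.42 (two-sided exact permutation p = 0.485, 0.543 adjusted over 3 ratios). It was higher by 0.109 without CIE rat 2 and by 0.859 without Control rat 10 (exact permutation p = 0.0628). The log2 ratio of *Gabra4* to *Gabra2* was -0.57 ± 0.47 in CIE rats against -0.76 ± 0.55 in Control rats (SD, n = 6 each; exact permutation p = 0.509, adjusted 0.543). *Gabra4* had more counts than *Gabra2* only in CIE rat 2 (ratio 1.20) and Control rat 10 (ratio 1.25). The log2 ratio of *Gabra5* to *Gabra2* was -1.86 ± 0.13 in CIE rats against -1.92 ± 0.20 in Control rats (SD, n = 6 each; exact permutation p = 0.543, adjusted 0.543). The smallest p that 6 rats against 6 allow is 0.00216.

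**Figure D4:**
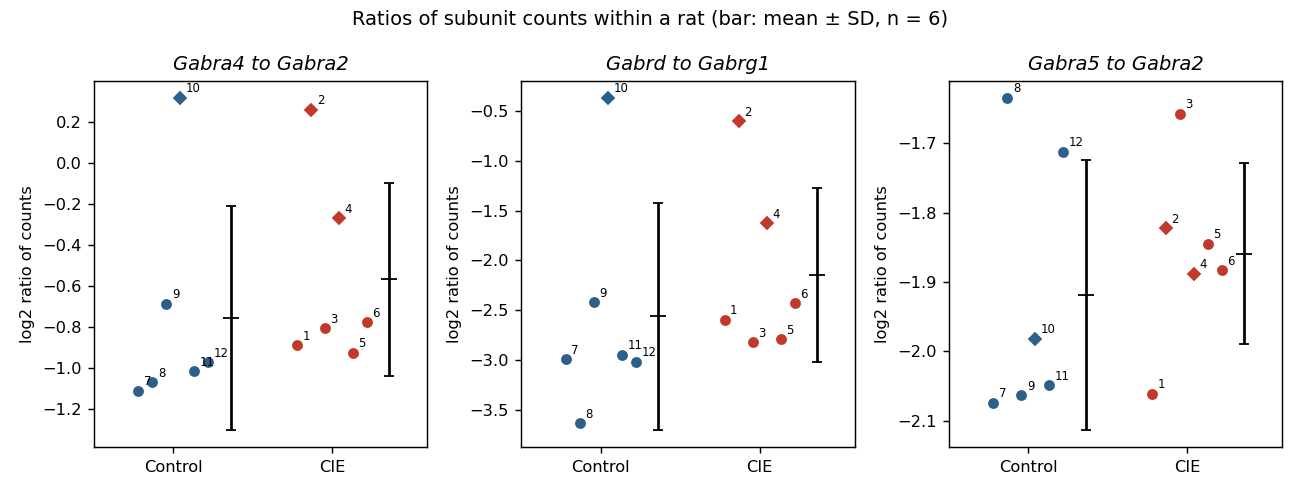
Log2 ratio of the counts of 2 subunits within each rat (vertical axis) in the Control and CIE groups, with the rat's number, diamonds for the 3 rats with the highest striatal score and the group mean ± SD (n = 6). The groups overlap in all 3 ratios, and the diamonds lie highest in the first and second.

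Of 12 other subunit genes 11 passed the filter on low counts, *Gabra6* being too scarce, and 0 of the 11 passed 5% FDR or a nominal p value below 0.05 in edgeR's test, while at 5% FDR DESeq2 and limma-voom also called 0 and limma-voom gave a nominal p value below 0.05 to 1, *Gabre*. Their median log2 fold change was -0.02. *Gabrb2*, an abundant synaptic beta subunit gene, was at -0.02 (edgeR FDR 0.973), and *Gabrg3*, a gamma subunit gene, was at 0.07 (FDR 0.929). *Gabre*, the epsilon subunit gene, had the smallest p value (0.136), with 10.01 ± 2.29 CPM in CIE rats against 12.8 ± 3.87 CPM in Control rats (SD, n = 6 each) and a log2 fold change of -0.35 (SE 0.22, edgeR FDR 0.736). All 6 CIE rats were below the Control median, but Control rat 10 was the lowest of all at 5.58 CPM. Without that rat the nominal edgeR p was 0.00678 (FDR 0.259), and given the cortical and striatal scores the log2 fold change was -0.0037. *Gabrq*, the theta subunit gene, was at -0.29 (FDR 0.865) and was also lowest in Control rat 10, at 2.58 CPM. The scarce *Gabrp* (0.48), *Gabrr1* (0.47), *Gabrr2* (-0.09) and *Gabrr3* (0.24), with 2 to 290 counts in a rat, had edgeR FDR values between 0.749 and 0.964.

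Among 26 genes for anchoring and trafficking of GABA-A receptors, 0 passed 5% FDR and 2 were lower in the CIE group at a nominal p value below 0.05, against 4.31% of all genes tested that were lower at this threshold. *Gabarap*, whose protein binds gamma subunits and takes part in receptor trafficking, was at 66.1 ± 7.43 CPM in CIE rats against 77.5 ± 8.05 CPM in Control rats (SD, n = 6 each). Its log2 fold change was -0.23 (SE 0.09, nominal p 0.0202, edgeR FDR 0.476), and 2 CIE rats were below every Control rat. *Rdx*, which encodes radixin, was at -0.20 (SE 0.08, nominal p 0.0291, edgeR FDR 0.531), and 3 CIE rats were below every Control rat. The nominal call held in 15 of 23 alternative fits for *Rdx* (-0.15 without Control rat 8, nominal edgeR p 0.103) and in 19 for *Gabarap*. *Clptm1*, whose protein retains GABA-A subunits inside the cell, was next at -0.12 (nominal p 0.0587, edgeR FDR 0.622). The median log2 fold change of the 26 was -0.05. In the same comparison 11 of 12 myelinating oligodendrocyte markers (median log2 fold change -0.58) and 5 of 10 endothelial markers were lower at the nominal threshold, and 1 endothelial marker was higher. Their part in the lower values here and in the next list was not tested.

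Of 10 measured genes for neurosteroid synthesis and the endogenous benzodiazepine-site ligand, 0 passed 5% FDR and 2 were lower in the CIE group at a nominal p value below 0.05, again against 4.31% of all genes tested. *Srd5a1* encodes 5-alpha-reductase, which takes part in making the neurosteroid allopregnanolone. It was at 19.9 ± 3.42 CPM in CIE rats against 25.4 ± 4.28 CPM in Control rats (SD, n = 6 each). This was -0.35 in log2 fold change (SE 0.13, nominal p 0.0176, edgeR FDR 0.458), and 4 CIE rats were below every Control rat. Its nominal call held in 22 of 23 alternative fits, with a lowest FDR of 0.201. *Dbi* encodes the diazepam binding inhibitor. It was at 30.9 to 54.1 CPM in CIE rats (median 33.6) against 39.7 to 51.4 CPM in Control rats (median 43.8). This was -0.29 in log2 fold change (SE 0.125, nominal p 0.0373, edgeR FDR 0.566). CIE rat 3, at 54.1 CPM, was above every Control rat and the other 5 CIE rats were below every Control rat. Without CIE rat 3 the log2 fold change was -0.43 and the edgeR FDR 0.0254. That fit called more genes of all kinds, 95 at 5% FDR and 2811 at the nominal threshold, against 76 and 1740 with all rats. The nominal call held in 10 of 23 alternative fits and was lost, among others, without Control rat 8 (-0.23, nominal edgeR p 0.105) and with the cortical and striatal scores (-0.19, nominal p 0.116). *Star*, the mitochondrial cholesterol carrier, was next, at -0.20 (edgeR FDR 0.878).

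Of 8 genes for GABA synthesis, GABA transport and chloride balance, 0 passed either threshold. All 8 had log2 fold changes below 0, with a median of -0.06, a range from -0.24 in *Slc6a11* to -0.00092 in *Gad1* and a smallest edgeR FDR of 0.701; given both scores as covariates *Slc6a11* was at 0.03. The smallest FDR was that of *Slc32a1*, the vesicular GABA transporter (-0.16, SE 0.09), in which 4 CIE rats were below every Control rat. *Abat*, the GABA transaminase, was at -0.08 (FDR 0.822) and *Slc6a11*, the glial GABA transporter, at -0.24 (FDR 0.860).

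For each subunit, the genes with the most similar profile were sought among 16890 others, by Pearson's r of log2 CPM over the 12 rats after each group mean was subtracted. This r is a description with no test, since the best of many genes must be high, and all values share the same libraries. The nearest to *Gabrd* were *Drd1* (the D1 dopamine receptor, a gene of the direct striatal pathway and also of CeA neurons), *Ngef* and LOC102551038, each at 0.99, and the nearest to *Gabra4* were *Kcnip2* (a potassium channel partner), *Spata2L* and *Baiap2*, each at 0.99. These values rest in part on the 3 rats with the highest striatal score, and in the other 9 rats they lay between 0.89 and 0.98. The nearest to *Gabra2* were *Rnf183* (0.95), *Ldb2* (0.92) and *Arhgap6* (0.90), to *Gabra3* *Sept9* (0.97), *Lrfn2* (0.96) and *Eps8* (0.95), and to *Gabra5* *Acta1* (0.96) and *Bhlhb9* (0.94). Those of *Gabrb1* were *Rab8b* (0.97), *Dcx* (0.96) and *Nkain3* (0.95), and those of *Gabrg1* were *Pgrmc1* (0.97), *Tspan13* (0.95) and *Odc1* (0.94). No gene was among the 3 nearest of more than 1 of the 7 subunits. Only the 3 nearest were kept for each subunit. *Gabra4* and *Gabrd* had r = 0.98 with each other, so a gene listed for 1 of them can also lie close to the other.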

How the data were processed

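The deposited values are raw counts per gene, with 1 column per rat. To make them, the authors aligned the reads with BWA (build Rnor_6.0) and ran HTSeq over the alignments (the submitters' processing notes also name DESeq2 1.26). Annotation, strand and overlap settings are not given in the sources used here, so overlapping or antisense transcripts may add reads to a gene. From these counts, genes were kept with filterByExpr, scaled by TMM and compared, CIE against Control without covariates, with edgeR 4.0.16 (quasi-likelihood F test, two-sided) in R 4.3.3. DESeq2 1.42.0, limma 3.58.1 (voom with quality weights) and sva 3.50.0 served as alternatives. SE was taken as log2 fold change over root F. Log2 CPM used a prior count of 2. Single values were tested with exact permutations in Python 3.11.15. The fit across genes was tested on simulated data.

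The members and gene lists were chosen with earlier results of these data known. Genes named are the 7 members, other family subunits past the filter, and of each further list those with a nominal p value below 0.05 and the 3 with the smallest p value, plus the 3 nearest profiles per member; some genes that this rule names are not reported here. The 2 fits with the striatal score alone and without 3 rats were added after the values were seen. The rats used for the relations with the striatal score and between pairs of subunits were also chosen after the values were seen. Rats of a group differed by more than counting noise (median chi-square per gene 3.70 to 15.9 over 30 pairs, where counting noise gives 0.455). Sequences came from RefSeq (GRCr8).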

Additional observations from a re-analysis of the deposited data

Results flagged for a closer look

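In 60 groups of 6 rats, 6 values lay far from the other 5 of their group by Dixon's test, where chance gives about 3 for normal values. Genes were tested on CPM, where high values stand out more than in log2, and ratios in log2. The ratios reuse the counts of the genes, so the groups are not independent. *Gabra4* in Control rat 10 was at 246 CPM, against 64.1 to 119 CPM in the other Control rats. *Gabrd* in the same rat was at 75.1 CPM, against 8.17 to 22.1 CPM, and *Gabrd* in CIE rat 2 was at 67.3 CPM, against 16.8 to 34.6 CPM. The log2 ratio of *Gabra4* to *Gabra2* was 0.32 in Control rat 10, against -1.11 to -0.69 in the other Control rats, and that of *Gabrd* to *Gabrg1* was -0.36 there, against -3.64 to -2.42. These 5 values belong to 2 rats, the 2 with the highest striatal marker scores. *Dbi* in CIE rat 3 was at 54.1 CPM, against 30.9 to 36.8 CPM in the other CIE rats.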

How the results depend on the processing

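None of the 7 subunit genes passed 5% FDR in any of 23 alternative fits (lowest FDR 0.305, *Gabra5* with limma-voom). The 39 recomputed ratio differences kept their direction with p above 0.05, but leaving out 1 rat moved them, from 0.109 to 0.859 for *Gabrd* to *Gabrg1*, 0.023 to 0.404 for *Gabra4* to *Gabra2* and 0.019 to 0.117 for *Gabra5* to *Gabra2*. Genes at 5% FDR numbered 76, against 273 with DESeq2, 234 with limma-voom, 34 without the 3 rats with the highest striatal score, and, leaving out 1 rat, from 34 (Control rat 9 absent) to 154 (CIE rat 6 absent). Genes at a nominal p value below 0.05 numbered 1740, against 3596 with limma-voom and 1347 (Control rat 9 absent) to 2811 (CIE rat 3 absent). Of the nominal calls 48.1% were higher in the CIE group, 60.3% with library size alone and 61.1% without Control rat 10. Log2 fold changes turned direction with the cortical and striatal scores in *Gabra4* (-0.0074), *Gabrd* (-0.0287), *Gabrg1* (0.0665), *Gabrq* (0.0895), *Gabrg3* (-0.0673), *Gabrr2* (0.0332), *Gabrb2* (0.0687) and *Slc6a11* (0.0268). With the striatal score alone they did in *Gabrd* (-0.0377), *Gabrq* (0.0357), *Gabrr2* (0.0142) and *Gabrb2* (0.034), with the neuron score in *Gabrg1* (0.0052), with limma-voom in *Star* (0.0211), and without the 3 rats in *Gabra3* (-0.0038), *Gabrg3* (-0.125) and *Gabrr2* (0.10). Leaving out 1 rat at a time gave ranges across 0 of -0.0026 to 0.56 for *Gabra4*, -0.25 to 0.90 for *Gabrd*, -0.0567 to 0.132 for *Gabra3*, -0.135 to 0.0127 for *Gabrg1*, -0.0177 to 0.149 for *Gabrg3*, -0.234 to 0.0845 for *Gabrr2* and -0.102 to 0.0361 for *Gabrb2*. The cause was not tested. No paired analysis was made, because rats were assigned to the groups at random and no pairs are given. Depth did not limit the 7 subunits, whereas *Gabrr1* and *Gabrr2* had few counts.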
